A study of Mus musculus with 20 samples.

Results

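The genes described here are the 10 that carry out fusion and fission of mitochondria and were measured in islets of mice lacking the mitofusins in β-cells: Mfn1, Mfn2, Opa1, Oma1, Dnm1l, Fis1, Mff, Mief1, Mief2 and Gdap1. They were chosen by name and not by their values, and all 10 were found among the 28632 genes of the count table. The data are RNA sequencing of pancreatic islets from mice aged 12 weeks on the C57BL/6N background, isolated with collagenase and kept in culture for a day before RNA extraction. There were 6 control libraries (Ctrl), 4 from mice lacking Mfn1 in β-cells (β-Mfn1KO), 5 from mice lacking Mfn2 (β-Mfn2KO) and 5 from mice lacking both (β-Mfn1/2DKO). In the knockout groups a floxed exon, exon 4 of Mfn1, exon 6 of Mfn2 or both, was removed by Ins1-Cre, which is active in β-cells, so that the other cells of the islet keep intact alleles. The labels call the Ctrl animals wild type, whereas in the study's methods the control group pooled mice with Ins1-Cre alone, mice with floxed Mfn1 and mice with floxed Mfn2. Which Ctrl library came from which of these is not given in the labels. Both sexes are present in each group. The labels do not say what a replicate number stands for, and the p-values measure only the spread between these samples.

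Mitochondria in β-cells form a network that is remodelled continuously by fusion and division, and this network has been linked to ATP production and insulin release after glucose. Mfn1 and Mfn2 encode the mitofusins, GTPases of the outer mitochondrial membrane that tether neighbouring organelles and fuse their outer membranes. Opa1 encodes the dynamin-related GTPase that fuses the inner membranes, and Oma1 encodes a protease of the inner membrane that cleaves OPA1 under stress. Division is carried out by DRP1, the product of Dnm1l, which is recruited from the cytosol to the outer membrane by the adaptors encoded by Fis1, Mff, Mief1 and Mief2. Gdap1 encodes an outer membrane protein of the glutathione transferase family that promotes division and is mutated in forms of Charcot-Marie-Tooth disease.

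The sequence shown is that of the exon deleted in β-Mfn1KO, since its loss defines the group. It begins inside the phosphate-binding motif of the GTPase and is given 5′ to 3′ on the coding strand, from the mouse GENCODE M21 transcripts (GRCm38), with the 19 bases of the motif that lie in the exon in capitals. Exon 4 of the 18 exons of Mfn1-201 lies at chr3:32538270-32538432 on the plus strand, in the coding part of Mfn1 (ENSMUSG00000027668, chr3:32529465-32579239).
Mfn1 exon 4: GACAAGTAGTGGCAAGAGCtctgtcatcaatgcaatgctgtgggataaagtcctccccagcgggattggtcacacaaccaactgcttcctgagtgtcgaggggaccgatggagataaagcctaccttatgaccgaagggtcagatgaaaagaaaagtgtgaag
This exon is 163 bases long, which leaves a remainder of 1 when divided by 3, so that joining the flanking exons shifts the reading frame. In the annotated transcript the shifted frame then reached a stop codon 15 codons after the junction. The exon makes up 3.57% of the Mfn1 transcript, and the counts below were summed over the whole gene. Mfn2 (ENSMUSG00000029020) lies at chr4:147873599-147904704 on the minus strand. No stretch of 75 bases of either mitofusin transcript occurred in a transcript of another gene.

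The libraries held 12400687 to 20329064 counts in Ctrl, 15745680 to 16685381 in β-Mfn1KO, 15110046 to 59533407 in β-Mfn2KO and 65533388 to 122947313 in β-Mfn1/2DKO, so every double knockout library was deeper than every other. Only β-Mfn2KO replicates 4 and 5 were also above 40000000, and a fit with this depth class as a covariate rests on those 2 libraries. In that fit Mfn1 and Mfn2 stayed called in β-Mfn1/2DKO against Ctrl, and Mff, Mief1 and Gdap1 did not (edgeR adjusted p = 0.61, 0.55 and 0.21). Each gene of the 10 had at least 143 counts in every library. The values given below are normalised counts, scaled between libraries with edgeR's TMM factors. All 9 β-cell markers examined were detected in every library. Together they took 14.0% to 21.9% of the counts in Ctrl, 15.8% to 18.9% in β-Mfn1KO, 15.0% to 18.0% in β-Mfn2KO and 6.52% to 9.57% in β-Mfn1/2DKO. The 10 acinar markers took at most 0.909% in any library other than β-Mfn1/2DKO replicates 4 and 5, where they took 2.32% and 5.59%. The 5 α-cell markers took 3.47% to 5.47% in β-Mfn1/2DKO, 2.08% to 3.01% in β-Mfn2KO and 1.5% to 4.90% in Ctrl, and the 5 endothelial markers took 0.0177% to 0.0284%, 0.0112% to 0.0151% and 0.0104% to 0.0156%. In counts from whole islets, fewer β-cells and less mRNA per β-cell cannot be told apart. The study separately measured β-cell mass in the pancreas at 10 weeks of age and reported no significant difference between the genotypes. The part of these shares in the results below was not tested.

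Mfn1 mRNA was lower in every library from mice with the Mfn1 deletion, whether or not Mfn2 was also deleted. In Ctrl it ran from 1518 to 1807 normalised counts with a median of 1693. The β-Mfn1KO libraries held 770.4, 621.4, 630.8 and 673.6 normalised counts of Mfn1, and the β-Mfn1/2DKO libraries held 690.3, 690.5, 686.9, 855.9 and 1062. No library of either group reached the lowest Ctrl library. Mfn1 fell by 1.31 ± 0.11 (SE) on the log2 scale in β-Mfn1KO, to 40.4% of Ctrl (95% interval 34.6% to 47.0%, edgeR's quasi-likelihood test, Benjamini-Hochberg adjusted p = 6.6e-07). In β-Mfn1/2DKO Mfn1 fell by 1.07 ± 0.09 (SE), to 47.7% of Ctrl (41.7% to 54.5%, edgeR adjusted p = 6.3e-08). The β-Mfn2KO libraries held 1683 to 1807 normalised counts of Mfn1, inside the Ctrl range.

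Mfn2 mRNA was lower in every library with the Mfn2 deletion, and its fall was smaller in the double than in the single knockout. In Ctrl it ran from 3089 to 4373 normalised counts with a median of 3252. The β-Mfn2KO libraries held 1532, 1586, 1688, 1474 and 1607, and the β-Mfn1/2DKO libraries held 2022, 2082, 2062, 2131 and 2124. The libraries of these 3 groups fell into separate ranges, with Ctrl highest and β-Mfn2KO lowest. Against Ctrl, Mfn2 fell by 1.15 ± 0.08 (SE) on the log2 scale in β-Mfn2KO, to 45.0% (40.3% to 50.2%, edgeR adjusted p = 1.1e-08), and fell by 0.75 ± 0.07 in β-Mfn1/2DKO, to 59.5% (53.4% to 66.2%, edgeR adjusted p = 3.3e-07).

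**Figure D1:**
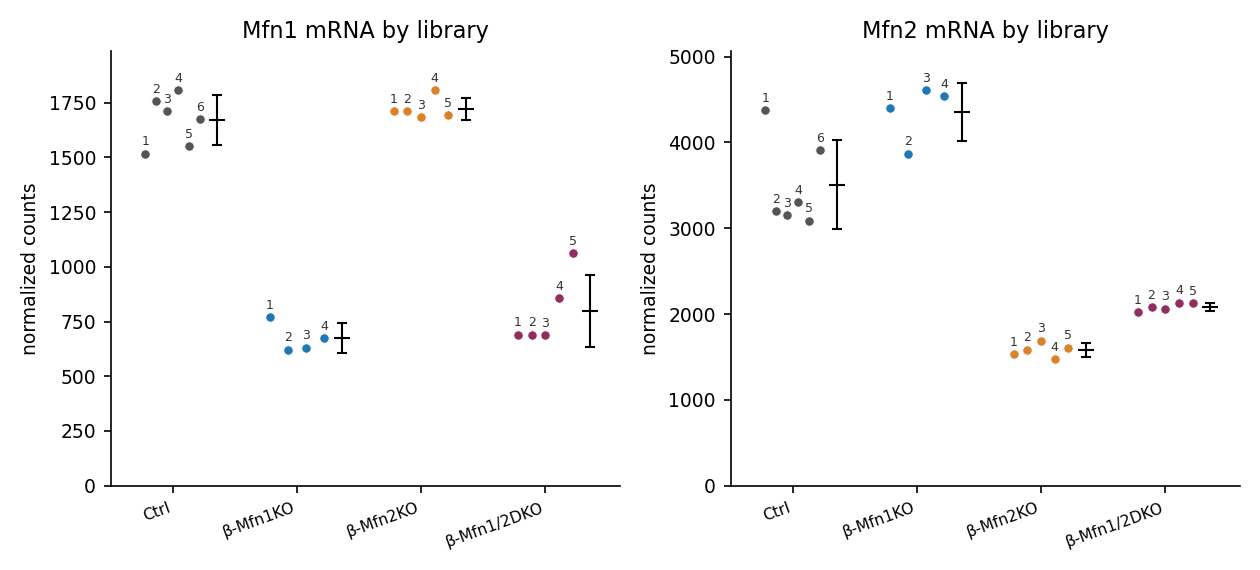
Normalised counts of Mfn1 and Mfn2 (y axes, starting at 0) in each library of the 4 groups. Points are libraries and bars are mean ± SD; Mfn1 is low in β-Mfn1KO and β-Mfn1/2DKO, Mfn2 is low in β-Mfn2KO and β-Mfn1/2DKO, and the 5 β-Mfn1/2DKO libraries of Mfn2 (2022 to 2131) lie above the 5 β-Mfn2KO libraries (1474 to 1688).

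The next comparisons asked whether the paralog left intact was more abundant when the other was deleted. Mfn1 did not differ detectably in β-Mfn2KO: its log2 change was 0.04 with a 95% interval of −0.15 to 0.24, which corresponds to 90.2% to 117.8% of Ctrl (edgeR adjusted p = 1.0). Mfn2 in β-Mfn1KO was 4399, 3869, 4607 and 4535 normalised counts, against 3089 to 4373 in Ctrl. The groups overlapped, since Ctrl replicates 1 and 6 (4373 and 3910) lay above the lowest β-Mfn1KO library. The mean was 124.2% of Ctrl (95% interval 110.9% to 139.1%), a log2 difference of 0.31 ± 0.08 (SE) with an unadjusted p of 0.00064 and an adjusted p of 0.43 over all genes (edgeR), so Mfn2 was not called. Leaving out Ctrl replicate 1 moved the difference to 0.39 and the adjusted p to 0.011 (edgeR), the only call for it among the 12 alternative analyses and the 20 that left out a library. Over the 12 alternatives the difference ran from 0.29 to 0.35.

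Values of genes near Mfn2 on chromosome 4 stand here beside that of Mfn2. The 3 genes whose pattern over the 20 libraries was closest to that of Mfn2 were Eno1, Cfap74 and Miip, with root mean square log2 differences of 0.35, 0.37 and 0.40 against a median of 0.60 over the 12274 genes with a mean of at least 100. All 3 lie on chromosome 4, at 2.33, 7.5 and 0.00478 Mb from Mfn2. Miip, which lies next to Mfn2, held 331, 159, 191, 140, 149 and 265 normalised counts in Ctrl replicates 1 to 6, and 396 to 435.5 in β-Mfn1KO. The same Ctrl replicates, 1 and 6, were the highest for Miip as for Mfn2. Eno1, which encodes the glycolytic enzyme enolase and lies in the same region, held 11680 and 8172 in these replicates, 4815 to 5661 in the other Ctrl libraries and 8177 to 11140 in β-Mfn1KO. Cfap74 held 561.1 in Ctrl replicate 1 but 283.3, its lowest Ctrl value, in replicate 6, with 322.1 to 384.7 in the other Ctrl libraries and 401.9 to 593.6 in β-Mfn1KO. The zinc finger genes Zfp991 and Zfp990 were added after their values had been seen. Zfp991 held 677 and 386 normalised counts in Ctrl replicates 1 and 6, 114 to 147 in the other Ctrl libraries and 468.5 to 638 in β-Mfn1KO. Zfp990 ran the other way, at 0 in Ctrl replicate 1 and 137 in replicate 6 against 184 to 368 in the other Ctrl libraries, and at 0, 0, 4.97 and 0 in β-Mfn1KO. Of Zfp991, 75.9% of the 75-base stretches also occur in another gene, of Eno1 23.0%, of Zfp990 11.6% and of Cfap74 5.63%, so their counts are uncertain.

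**Figure D2:**
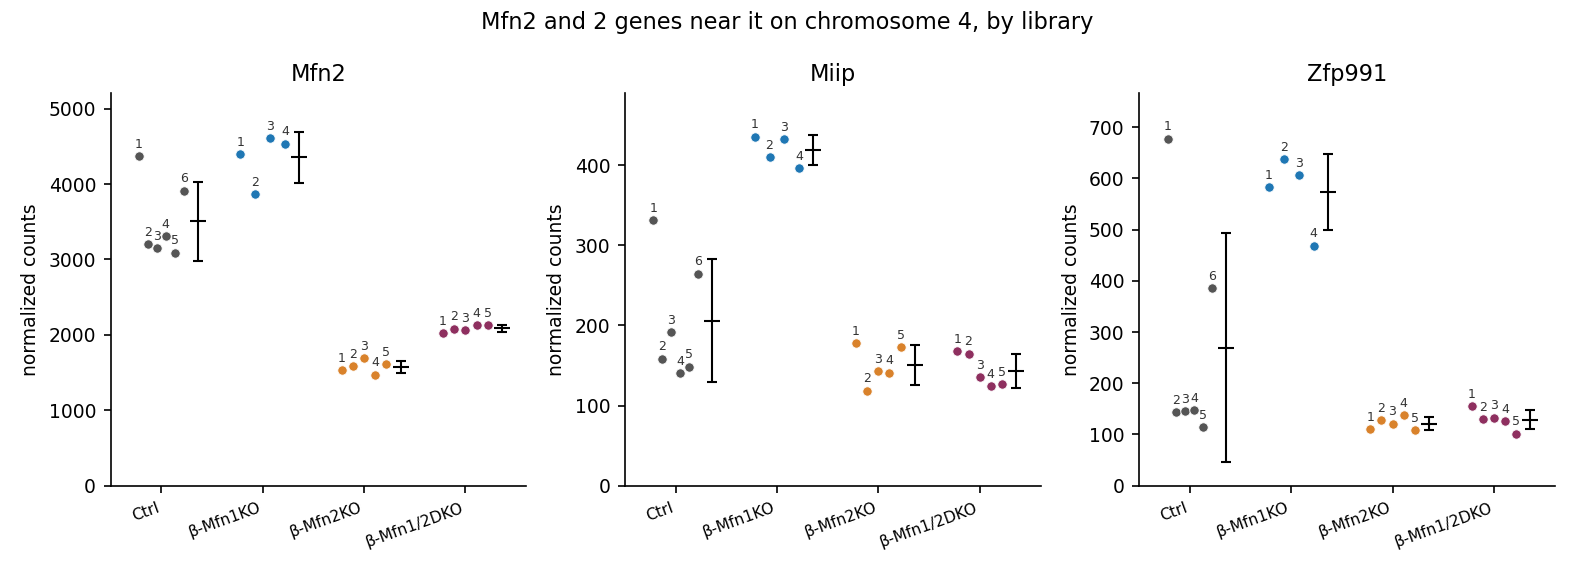
Normalised counts (y axes, starting at 0) of Mfn2 and of the chromosome 4 genes Miip and Zfp991 in each library, with replicate numbers beside the points and bars at mean ± SD. Ctrl replicates 1 and 6 are the highest Ctrl libraries in all 3 genes, and only Mfn2 is lower in β-Mfn2KO and β-Mfn1/2DKO than in every Ctrl library.

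Within 5 Mb either side of Mfn2, 28 of the 67 genes with a mean of at least 100 (41.8%) had an unadjusted p under 0.05 in β-Mfn1KO against Ctrl, compared with 11.9% of all 12274 such genes. Around Mfn1 this was 4 of 43 genes (9.30%). In β-Mfn2KO against Ctrl it was 9 of 67 genes around Mfn2 (13.4%, against 4.58% of all), in β-Mfn1/2DKO against Ctrl 34 of 67 (50.7%, against 49.2%) and in β-Mfn1/2DKO against β-Mfn1KO 49 of 67 (73.1%, against 49.3%). The window around Mfn1 gave, in the same order, 6 of 43 (14.0%), 20 of 43 (46.5%) and 19 of 43 (44.2%). In β-Mfn2KO the share was thus as high around Mfn1 as around Mfn2. The log2 differences from Ctrl in β-Mfn2KO and β-Mfn1/2DKO were −0.45 and −0.52 for Miip, −0.43 and −0.51 for Eno1, −0.52 and −0.86 for Cfap74 and −1.15 and −1.05 for Zfp991, of which edgeR called only Cfap74 and Zfp991 in β-Mfn1/2DKO (adjusted p = 0.00015 and 0.027). The comparisons with Ctrl rest on the same Ctrl libraries. The part of this neighbourhood in the Mfn2 differences was not tested.

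The paralog question can also be put between the knockouts, in animals that share the Mfn2 deletion. Mfn2 was higher in β-Mfn1/2DKO than in β-Mfn2KO by 0.40 ± 0.08 (SE) on the log2 scale, at 132.2% (118.3% to 147.8%, edgeR adjusted p = 0.0011), and all 5 libraries lay above all 5. The α-cell and endothelial markers given above, of cells that keep intact alleles, were also higher in β-Mfn1/2DKO than in β-Mfn2KO without overlap. Markers of δ, PP, acinar, duct, macrophage, and stellate and fibroblast cells overlapped between these groups. Those of δ-cells took 0.209% to 0.306% in β-Mfn1/2DKO and 0.188% to 0.311% in β-Mfn2KO. The part of these cells in the Mfn2 difference was not tested. The call of Mfn2 held in each of the 12 alternatives, where the difference ran from 0.35 to 0.51. Here, around Mfn2, 28 of 67 genes (41.8%) had an unadjusted p under 0.05, against 44.2% of all genes with a mean of at least 100. Between the same groups Miip differed by −0.07, Eno1 by −0.08, Cfap74 by −0.34, Zfp991 by 0.09 and Zfp990 by 0.49, none of them called. The difference of Mfn2 on loss of Mfn1 was 0.31 with Mfn2 intact and 0.40 with Mfn2 deleted, and these did not differ detectably (interaction 0.09 ± 0.11 (SE), edgeR adjusted p = 0.77).

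For Mfn1 the matching comparison is β-Mfn1/2DKO against β-Mfn1KO. The difference was 0.24 ± 0.11 (SE) on the log2 scale (edgeR adjusted p = 0.14). The β-Mfn1/2DKO libraries at 855.9 and 1062 normalised counts are replicates 4 and 5, those with the most acinar mRNA. The other 3, at 686.9 to 690.5, lay inside the β-Mfn1KO range, and without replicates 4 and 5 the difference was 0.06 (edgeR adjusted p = 0.71). With total-count scaling, in which the median of all genes moved by 0.161 in this comparison, it was 0.40 (edgeR adjusted p = 0.0046). Over the 12 alternatives the difference ran from −0.07 to 0.40 and the adjusted p from 0.0046 to 0.87 (edgeR and DESeq2). Leaving out β-Mfn1/2DKO replicate 1, 2 or 3 gave 0.32 and a call (edgeR adjusted p = 0.049, 0.045 and 0.047). Between these groups, too, the α-cell and endothelial markers were higher in β-Mfn1/2DKO without overlap. They took 3.47% to 5.47% and 0.0177% to 0.0284% there, and 2.87% to 3.32% and 0.0102% to 0.0114% in β-Mfn1KO. The part of these cells in the Mfn1 difference was not tested.

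Added together per kilobase of exon, Mfn1 and Mfn2 gave the mitofusin mRNA of each library. It was 948 ± 91.9 normalised counts per kb in Ctrl (mean ± SD, n = 6), of which Mfn2 made up 70.9% ± 3.66. In β-Mfn1KO the 4 libraries held 973.0, 846.5, 990.1 and 983.3 per kb, of which the lowest lay just under the lowest Ctrl library (848.8) and none above the highest, and the mean was 948 ± 68.2 (exact permutation test, two-sided, adjusted p = 1.0). In β-Mfn2KO the libraries held 575.0 to 600.2 per kb, all under the lowest Ctrl library, and the mean of 585 ± 9.54 (n = 5) was 61.7% of Ctrl (exact permutation p = 0.0043, the smallest that 462 splits allow, adjusted p = 0.0065). The β-Mfn1/2DKO libraries held 502.2, 513.7, 509.3, 550.2 and 582.6 per kb. Their mean of 532 ± 34.0 (n = 5) was 56.1% of Ctrl (exact permutation adjusted p = 0.0065). These totals do not separate message with a floxed exon from message without it. In β-Mfn1KO the total includes the Mfn2 difference from Ctrl that was not called.

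The share of Mfn2 in this total does not depend on the scaling between libraries. A fall of Mfn1 alone raises it and a fall of Mfn2 alone lowers it. The tests of the single knockouts therefore do not address the paralog left intact. It was 87.0% to 89.6% in β-Mfn1KO, above all Ctrl libraries (68.2% to 77.2%, exact permutation p = 0.0095, the smallest that 210 splits allow, adjusted p = 0.014). In β-Mfn2KO it was 49.0% to 54.2%, below all Ctrl libraries (exact permutation adjusted p = 0.013). In β-Mfn1/2DKO the share was 77.5%, 78.0%, 77.9%, 74.6% and 70.2%, within or just above the Ctrl range, with a difference in means of 4.72 percentage points (exact permutation adjusted p = 0.052). That difference was 6.90 points without β-Mfn1/2DKO replicates 4 and 5 (exact permutation adjusted p = 0.024), 6.09 without replicate 5 alone (0.019) and 5.99 without Ctrl replicate 1 (0.016). It was 4.13 to 4.26 points without β-Mfn1/2DKO replicate 1, 2 or 3 (exact permutation adjusted p = 0.105). Without Ctrl replicate 2, 3, 4 or 5 it was 4.18 to 4.55 (0.087).

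**Figure D3:**
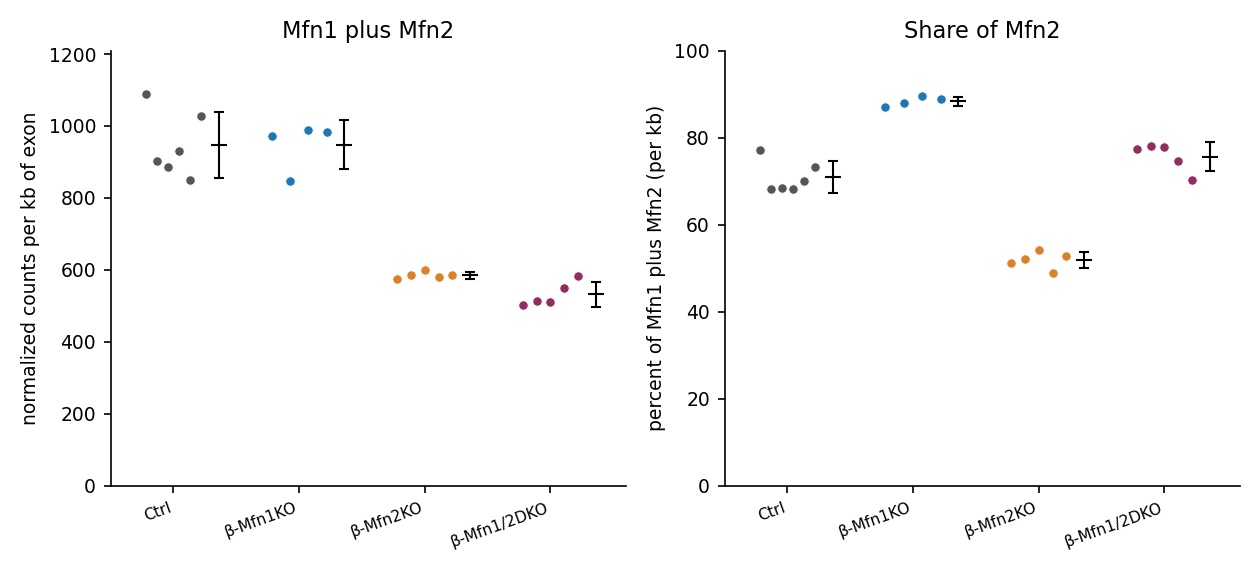
Mfn1 plus Mfn2 in normalised counts per kb of exon (left) and the percentage of it that is Mfn2 (right) in each library, with bars at mean ± SD and axes from 0. The β-Mfn1KO total (846.5 to 990.1) lies at the level of Ctrl while its Mfn2 percentage is higher, and the totals of β-Mfn2KO and β-Mfn1/2DKO lie below every Ctrl library.

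Per kilobase of exon in Ctrl, Fis1 was the most abundant of the 10 mRNAs, at 2233 ± 97.0 normalised counts per kb (SD, n = 6), and Dnm1l followed at 684 ± 44.3. Mief2 was the least abundant at 190 ± 17.1 per kb. These 3 places held whether the length was that of all exons together or of the transcript with the longest coding sequence. By exon length the order between them was Mfn2 (675), Gdap1 (529), Opa1 (416), Mff (335), Oma1 (286), Mfn1 (273) and Mief1 (203). Neighbours whose libraries overlapped were Dnm1l and Mfn2, Oma1 and Mfn1, and Mief1 and Mief2. By transcript length Mff stood next to Dnm1l, so the middle of the order rests on the length chosen.

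The genes of inner membrane fusion were not called in any comparison of the 4 groups in the main edgeR fit. Among the alternatives only total-count scaling called Opa1, higher in β-Mfn1/2DKO than in β-Mfn1KO by 0.24 (edgeR adjusted p = 0.014). That scaling moved the median of all genes by 0.161 in this comparison. Opa1 held 3086 to 3524 normalised counts in Ctrl, 2854 to 3415 in β-Mfn1KO, 3177 to 3574 in β-Mfn2KO and 3129 to 3468 in β-Mfn1/2DKO. The ranges of the 4 groups overlapped throughout. In the double knockout Opa1 stood at 99.5% of Ctrl with a 95% interval of 92.8% to 106.6% (edgeR adjusted p = 0.95). Oma1 held 546.6 to 664.5 normalised counts in Ctrl and 571.9 to 625.5 in β-Mfn1/2DKO, at 97.5% of Ctrl (88.8% to 107.1%, edgeR adjusted p = 0.76). In the single knockouts Oma1 stood at 104.2% and 98.9% of Ctrl, and Opa1 at 94.4% and 101.6%. These figures are of mRNA, and cleavage of OPA1 by OMA1 is not seen in them.

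Of the fission genes, Dnm1l and Mief2 were likewise not called in any of these comparisons. Dnm1l held 3293 to 3890 normalised counts in Ctrl, 3407 to 4033 in β-Mfn1KO, 3667 to 3884 in β-Mfn2KO and 3462 to 3647 in β-Mfn1/2DKO. The last 2 groups did not overlap, yet they differed by only −0.10 ± 0.05 (SE) on the log2 scale (edgeR adjusted p = 0.23), and against Ctrl the double knockout stood at 99.5% (92.6% to 107.0%). Of the Dnm1l transcript, 3.12% of the 75-base stretches also occur in another gene. Mief2, whose product binds DRP1 at the outer membrane, held 445.2 to 579.6 in Ctrl and 495.0 to 527.1 in β-Mfn1/2DKO, at 97.9% of Ctrl (86.9% to 110.3%).

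Gdap1 had the smallest adjusted p outside the mitofusins in the double knockout and was lower there than in every other library. Its Ctrl libraries ran from 3804 to 4322 normalised counts with a median of 4103. The β-Mfn1KO libraries held 4313, 4287, 4406 and 4288, the β-Mfn2KO libraries 3887, 4146, 4127, 4242 and 3957, and the β-Mfn1/2DKO libraries 3598, 3537, 3704, 3577 and 3020. All 5 double knockout libraries lay below all 15 others. Gdap1 fell by 0.23 ± 0.05 (SE) on the log2 scale against Ctrl, to 85.3% (79.3% to 91.8%, edgeR adjusted p = 0.0028). It also fell by 0.31 ± 0.06 against β-Mfn1KO (edgeR adjusted p = 0.00038) and fell by 0.22 ± 0.05 against β-Mfn2KO (edgeR adjusted p = 0.006). Gdap1 was the only member called in the interaction, which compares loss of Mfn1 in the absence of Mfn2 with loss of Mfn1 in its presence. The value was −0.30 ± 0.08 (SE, edgeR adjusted p = 0.018). Of all genes 5.92% were called in the interaction, and 12.8% of those with a mean of at least 100.

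The call of Gdap1 against Ctrl held in 9 of the 12 alternatives, whose adjusted p ran from 5e-06 to 0.38 (edgeR and DESeq2). Without β-Mfn1/2DKO replicates 4 and 5 the change was −0.16 (edgeR adjusted p = 0.052), and replicate 5, with the least Gdap1, also had the lowest share of β-cell markers, 6.52%. Leaving out any 1 library kept the call (edgeR adjusted p = 0.0017 to 0.012). Gdap1 was called in 10 of 12 alternatives against β-Mfn1KO, in 9 of 12 against β-Mfn2KO and in 7 of 11 in the interaction.

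The adaptors of DRP1 moved in both directions in the double knockout. Mff rose by 0.16 ± 0.05 (SE) on the log2 scale against Ctrl, to 111.4% (103.7% to 119.8%, edgeR adjusted p = 0.035). Its β-Mfn1/2DKO libraries held 3554, 3863, 3775, 3642 and 3384 normalised counts against 3191 to 3360 in Ctrl, with no overlap but with the nearest libraries of the groups at 3384 and 3360. Mief1, which binds DRP1 at the outer membrane, fell by 0.23 ± 0.07 (SE), to 85.3% of Ctrl (77.2% to 94.2%, edgeR adjusted p = 0.024). Its β-Mfn1/2DKO libraries held 1365, 1338, 1408, 1397 and 1522, against a wide Ctrl range of 1354 to 1959. The library at 1338 lay just under the lowest Ctrl library, and the others lay in the lower part of the Ctrl range. Both calls were less stable than that of Gdap1, with Mff called in 5 and Mief1 in 7 of the 12 alternatives. Mff was not called without Ctrl replicate 2, 3, 4 or 6 (edgeR adjusted p = 0.057 to 0.071). Mief1 was not called without Ctrl replicate 1, 2 or 4 or β-Mfn1/2DKO replicate 1, 2, 3 or 4 (edgeR adjusted p = 0.054 to 0.094).

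Fis1 was not called by the main edgeR fit against Ctrl in any knockout group. In β-Mfn1/2DKO it stood at −0.14 on the log2 scale (edgeR adjusted p = 0.15), and 2 of the 12 alternatives called it lower, DESeq2 (adjusted p = 0.043) and edgeR after a filter on low counts (adjusted p = 0.047), where the adjusted p of the 12 ran up to 1.0. It held 3518 to 3964 normalised counts in Ctrl, 4271, 4795, 3616 and 4421 in β-Mfn1KO, and 3486, 3934, 3478, 3385 and 3092 in β-Mfn1/2DKO. The single Mfn1 knockout thus had 3 libraries above every Ctrl library and 1 within their range, at 111.7% of Ctrl (101.4% to 123.1%, edgeR adjusted p = 0.64). Against β-Mfn1KO, Fis1 fell by 0.30 ± 0.07 (SE) in β-Mfn1/2DKO, to 81.3% (73.6% to 89.8%, edgeR adjusted p = 0.0037), a call held in 9 of the 12 alternatives but not without β-Mfn1/2DKO replicates 4 and 5 (−0.21, edgeR adjusted p = 0.061). In β-Mfn2KO the libraries held 3481 to 3822, and against β-Mfn1KO the difference was −0.23 (edgeR adjusted p = 0.16), or −0.30 without β-Mfn1KO replicate 3, the lowest of its group (edgeR adjusted p = 0.019). Mff in β-Mfn1KO ran from 3283 to 4047, at 109.1% of Ctrl (edgeR adjusted p = 0.64).

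**Figure D4:**
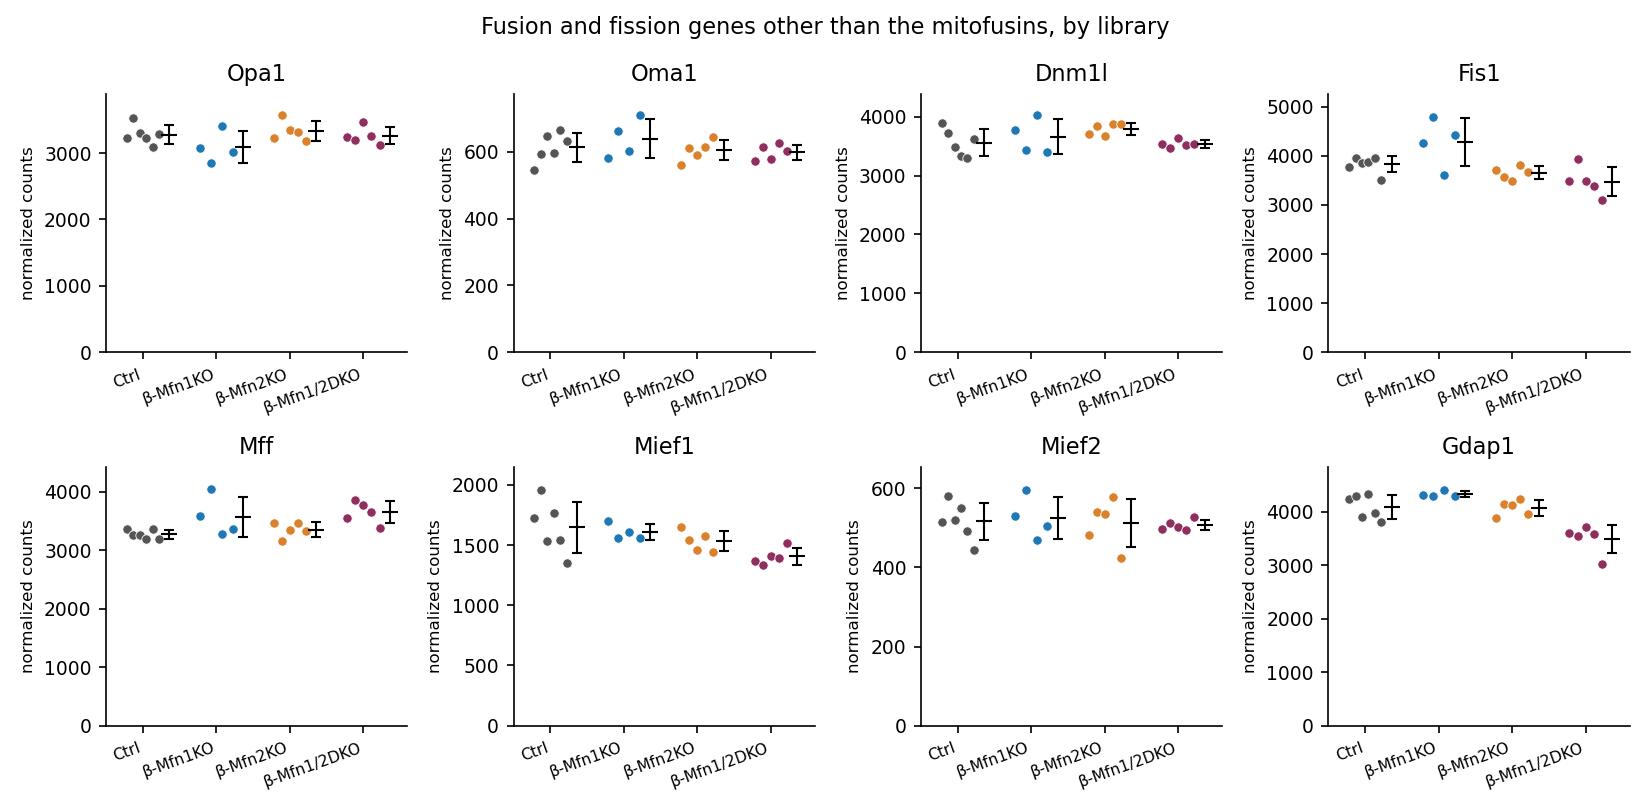
Normalised counts (y axes, starting at 0) of the 8 members other than the mitofusins in each library of the 4 groups, with bars at mean ± SD. Gdap1 in β-Mfn1/2DKO (3020 to 3704) lies below all other libraries, and Opa1, Oma1 and Mief2 keep to overlapping ranges in the 4 groups.

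Set against all genes, only the deleted gene was called in each single knockout, and in the double knockout the members other than the mitofusins were called at near the general rate. In β-Mfn1KO against Ctrl, 1 of 10 members was called, Mfn1 itself, where 0.0279% of all genes were called. In β-Mfn2KO this was also 1 of 10, Mfn2, against 0.0559%. Among the 8 members other than the mitofusins edgeR called 0 in either, with 2 at an unadjusted p under 0.05 in β-Mfn1KO and 0 in β-Mfn2KO (11.9% and 4.58% of the genes with a mean of at least 100), and DESeq2 called 0 in both. In β-Mfn1/2DKO against Ctrl, 5 of 10 were called (Mfn1, Mfn2, Mief1 and Gdap1 lower, Mff higher), where 16.5% of all genes and 33.6% of the 12274 genes with a mean of at least 100 were called. Of the 8 other members 3 were called, which is near that last rate. With a change over 1.5-fold as well, 2 of 10 were called, Mfn1 and Mfn2, against 5.21% of all genes. Between knockouts, 3 of 10 members were called in β-Mfn1/2DKO against β-Mfn1KO (Mfn2, Fis1 and Gdap1, all lower). The rate there was 17.4% of all genes and 35.1% of those with a mean of at least 100. Against β-Mfn2KO 3 were called (Mfn1 and Gdap1 lower, Mfn2 higher), where these rates were 13.0% and 26.6%. In β-Mfn2KO against β-Mfn1KO 2 were called (Mfn1 higher and Mfn2 lower), beside rates of 0.335% and 0.701%. Of the members called between knockouts or in the interaction, only Mfn1 and Mfn2 had changes over 1.5-fold. They were 1 member in β-Mfn1/2DKO against β-Mfn1KO (6.71% of all genes), 1 against β-Mfn2KO (3.84%) and both in β-Mfn2KO against β-Mfn1KO (0.175%), with 0 in the interaction (2.74%). The comparisons with Ctrl share the same 6 control libraries.

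The libraries of β-Mfn1/2DKO and Ctrl did not overlap in 4 of 10 members (Mfn1, Mfn2, Mff and Gdap1), against 10.6% of all genes. In β-Mfn1KO and in β-Mfn2KO this held for 1 of 10, the deleted gene, against 0.967% and 0.416%. Between knockouts, 3 of 10 did not overlap in β-Mfn2KO and β-Mfn1KO (Mfn1, Mfn2 and Gdap1, against 4.14%), 3 in β-Mfn1/2DKO and β-Mfn1KO (Mfn2, Mief1 and Gdap1, against 18.2%) and 4 in β-Mfn1/2DKO and β-Mfn2KO (Mfn1, Mfn2, Dnm1l and Gdap1, against 11.8%). These counts include the deleted genes. The rates cover all genes, also those with few counts, and were not computed for genes with a mean of at least 100, so an excess among the members is not shown. The median log2 change of the 8 other members was 0.05 in β-Mfn1KO, −0.01 in β-Mfn2KO and −0.03 in β-Mfn1/2DKO, where the medians of all genes were 0, 0.02 and 0.06. Total-count scaling moved the median of all genes in β-Mfn1/2DKO against Ctrl by 0.138, and relative to that shift Gdap1 stood at −0.22. Under that scaling itself Gdap1 was at −0.09 (edgeR adjusted p = 0.38).

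**Figure D5:**
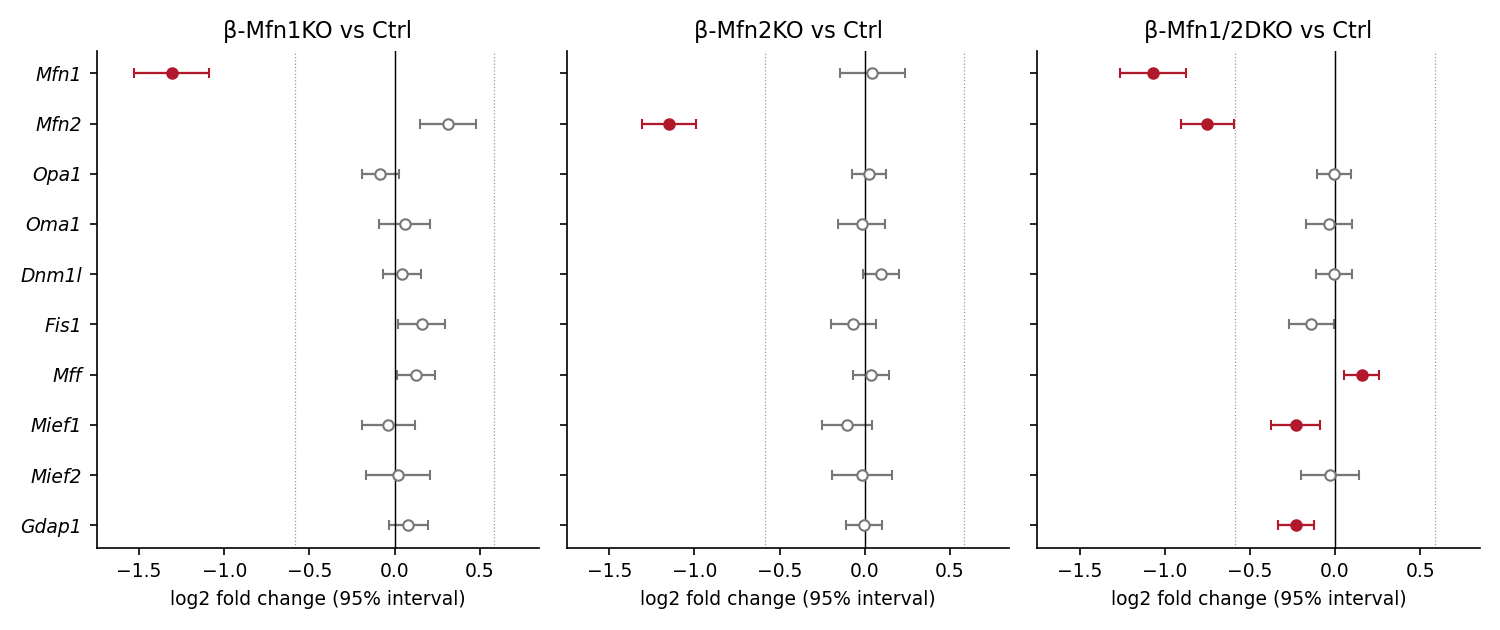
Log2 fold changes (x axis) of the 10 members in each knockout group against Ctrl, with 95% intervals. Filled red points passed an adjusted p of 0.05 (edgeR), and dotted lines mark a change of 1.5-fold, which only Mfn1 and Mfn2 exceeded.

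Sex was compared with the group held constant. Of the 10 members, edgeR called 0 between males and females, against 0.126% of all genes, with 0 at an unadjusted p under 0.05 and 0 called by DESeq2. The closest was Oma1, higher in males by 0.08 ± 0.05 (SE) on the log2 scale (unadjusted p = 0.105).

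A further list of 30 genes that regulate these proteins was examined in the same fits. In β-Mfn1KO and β-Mfn2KO against Ctrl edgeR called 0 of the 30, with 4 and 1 at an unadjusted p under 0.05, and DESeq2 called 0 in both. In β-Mfn1/2DKO 11 of 30 were called, 8 higher and 3 lower, with a median log2 change over the list of 0.06 against 0.06 over all genes. The share called was near that of all genes with a mean of at least 100 (33.6%; 16.5% of all genes), and the counts by role below are descriptions beside the same rate. This count ran from 3 to 17 over the 12 alternatives.

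Among the 7 regulators of fusion, 1 rose and 1 fell in the double knockout, where 33.6% of genes with a mean of at least 100 were called. Stoml2, a prohibitin-related protein needed for stress-induced hyperfusion, rose by 0.18 ± 0.06 (SE) on the log2 scale (edgeR adjusted p = 0.034). Miga1, which encodes a mitoguardin that promotes fusion at the outer membrane, fell by 0.20 ± 0.06 (edgeR adjusted p = 0.013). Among the 6 genes of OPA1 processing and its scaffold, Yme1l1, which encodes the other protease that cleaves OPA1, went from 6540 to 7873 normalised counts in Ctrl to 5281 to 5921 in β-Mfn1/2DKO, without overlap, and fell by 0.36 ± 0.05 (edgeR adjusted p = 2.2e-05). Phb2, a prohibitin of the inner membrane that stabilises long OPA1, rose by 0.22 ± 0.05 (edgeR adjusted p = 0.0063).

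Of the 11 further fission factors, 5 rose and 1 fell, beside the same 33.6%. Spire1, an actin nucleator with a mitochondrial isoform, held 1607 to 1909 normalised counts in Ctrl and 2159 to 2458 in β-Mfn1/2DKO, and rose by 0.39 (edgeR adjusted p = 7e-06). Mtfr1l, of the mitochondrial fission regulator family, rose by 0.21 (edgeR adjusted p = 0.0031). Dnm2, a dynamin of membrane scission, and Pgam5, a mitochondrial phosphatase that acts on DRP1, rose by 0.21 and 0.23 (edgeR adjusted p = 0.012 and 0.016). Tbc1d15, a RAB7 regulator that binds FIS1, went from 3656 to 4548 in Ctrl to 3093 to 3424 and fell by 0.33 (edgeR adjusted p = 0.00023).

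Inf2, a formin that drives actin assembly where mitochondria constrict, had the largest change of the 30, 1.35 ± 0.38 (SE) on the log2 scale (edgeR adjusted p = 0.016), on uneven values. It held 55.2 to 96.5 normalised counts in Ctrl and 138.7, 83.9, 89.3, 284.9 and 353.3 in β-Mfn1/2DKO. The highest values were again those of replicates 4 and 5, and without them the change was 0.51 (edgeR adjusted p = 0.40). Both are from males, as is replicate 3. With the group held constant, Inf2 was higher in males by 0.93 ± 0.24 (SE) on the log2 scale (edgeR unadjusted p = 0.00095, adjusted p = 0.17). Of the 6 genes of ubiquitin control, 1 was called: Marchf5, an outer membrane ubiquitin ligase with mitofusins and DRP1 among its targets, held 3294 to 3757 in Ctrl and 4112 to 4480 in β-Mfn1/2DKO, and rose by 0.30 (edgeR adjusted p = 0.00031).

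The 3 genes whose pattern over the 20 libraries was most like that of Mfn1 were Reln, Itga2 and Pcdh15, with root mean square log2 differences of 0.39, 0.45 and 0.45 against a median of 0.65 over all genes with a mean of at least 100. They lie on chromosomes 5, 13 and 10, and none is a neighbour of Mfn1. The likeness is a description over libraries that share groups and depth.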

How the data were processed

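Per the submitters' processing notes and the study's methods, the authors trimmed reads (cutadapt 2.3), aligned them with STAR 2.6.1b and deposited RSEM 1.3.1 expected counts per gene, whole numbers in the table used here. They also deposited a normalized table (unit: signal), used here only for its gene-wise factors. The strand setting is not given in the sources used here. Gene identifiers were matched to GENCODE M21, and 28579 of 28632 had a symbol.

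The counts were fitted with edgeR 4.0.16 (R 4.3.3): TMM factors, no filter, all 20 libraries with 1 coefficient per group, with quasi-likelihood tests adjusted after Benjamini-Hochberg over 28632 genes per contrast. Calls needed an adjusted p below 0.05. Normalised counts are counts scaled to the mean effective library size. SEs are the log2 change divided by the square root of F. Totals per kb of the mitofusins were compared by two-sided exact permutation tests, adjusted over the 3 comparisons with Ctrl. Alternatives included DESeq2 1.42.0, other scalings, filters, covariates and libraries left out. The alternative without the 2 libraries of high macrophage marker counts was chosen after seeing the data. The script was tested on simulated data. Depth was 12400687 to 122947313 counts per library.

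The members, the further list, the markers and the tests were chosen with earlier results of these data known. Named were all members, the further genes called against Ctrl, and the 3 genes of at least 100 mean normalised counts whose centred log2 pattern was nearest to each mitofusin's. Genes overlapping a member held at most 0.167% of its counts. The sequence of the deleted Mfn2 exon is not reported here.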

Additional observations from a re-analysis of the deposited data

Results flagged for a closer look

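Among the 40 sets of libraries made by the 10 genes and 4 groups, 2 held a library far from its group by Dixon's criterion, and chance gives about 1 in 20. Mfn1 in β-Mfn2KO replicate 4 stood at 1807 normalised counts, where the other 4 libraries lay between 1683 and 1712. Gdap1 in β-Mfn1/2DKO replicate 5 stood at 3020 normalised counts, where the others lay between 3537 and 3704. In that library acinar markers took 5.59% and β-cell markers 6.52% of the counts, and their part in the value was not tested.

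The effect of Mfn1 loss on Gdap1 differed with the state of Mfn2, by −0.30 on the log2 scale (edgeR's quasi-likelihood interaction, Benjamini-Hochberg adjusted p = 0.018). Loss of Mfn1 went with 0.08 in the presence of Mfn2 and with −0.22 in its absence.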

How the results depend on the processing

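Of the 16 called values of the 10 genes, 7 lost the call in at least 1 alternative and 0 changed sign. Of the 54 values not called, 31 changed sign and 9 were called somewhere. Members called in β-Mfn1/2DKO against Ctrl went from 5 to 3 with total-count scaling, 3 with the authors' normalization factors, 2 with depth class (over 40000000 counts) as a covariate and 3 without β-Mfn1/2DKO replicates 4 and 5, and ran from 3 to 5 with each library left out in turn, with 3 without Ctrl replicate 2 and without Ctrl replicate 4. Against β-Mfn1KO the 3 became 5 with thinned counts and 1 with depth class, and 3 to 4 leaving out libraries. For β-Mfn1KO against Ctrl leaving out libraries gave 1 to 2 members, 2 without Ctrl replicate 1. The interaction went from 1 to 0 with total-count scaling, the authors' factors, depth class and without β-Mfn1/2DKO replicates 4 and 5, and ran from 1 to 2 leaving out libraries, 2 (with Fis1) without β-Mfn1KO replicate 3. The causes were not tested.

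Over all genes, depth class lowered the calls from 4710 to 728 in β-Mfn1/2DKO against Ctrl, from 4971 to 1235 against β-Mfn1KO, from 3719 to 1683 against β-Mfn2KO and from 1694 to 911 in the interaction. In β-Mfn1KO against Ctrl 8 calls became 20 with DESeq2, 3 with only those groups, 5 with thinned counts and 28 without Ctrl replicate 1. In β-Mfn2KO against β-Mfn1KO 96 became 504 with DESeq2. Of the calls in β-Mfn1/2DKO against Ctrl 58.3% were higher, 85% with total-count scaling and 48.2% with the authors' factors.

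The deviations of same-numbered libraries from their group means correlated with a mean r of 0.253, against −0.0559 for other pairs, and r was over 0.1 in 21 of 27 pairs, 20 of the 23 of the same sex and 1 of the 4 of opposite sex. Since this did not hold in every pair and no label ties the numbers to an animal, day or batch, the libraries were not treated as paired. With the replicate number as a block, Mff lost its call in β-Mfn1/2DKO against Ctrl and no other member changed, and calls over all genes went from 16 to 25 in β-Mfn2KO against Ctrl and from 96 to 353 in β-Mfn2KO against β-Mfn1KO. Sign flips within numbers, as the replicate block for the mitofusin total, gave −347.0 in β-Mfn2KO and −400.6 in β-Mfn1/2DKO (exact test, adjusted p = 0.0938), and for the Mfn2 share 17.8 points in β-Mfn1KO (0.125) and −18.6 in β-Mfn2KO (0.0938), with p at the smallest that 4 or 5 pairs allow. The Mfn2 share of β-Mfn1/2DKO differed from Ctrl by 6.90 points without its replicates 4 and 5, and by 4.13 to 6.09 leaving out each library.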
